A study of Mus musculus with 2 samples.

Results

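Glial cells of the embryonic nerve roots and ganglia that carried transcripts of both *Sox8* and *Sox10* were examined in 2 single-cell RNA sequencing libraries. A cell was taken as a member when it held at least 1 unique molecular identifier (UMI, 1 counted transcript) of each gene. This gave 209 cells of 4403 in all, 58 of 840 at E11.5 and 151 of 3563 in the E12.5 library. The cells were Tomato-positive cells sorted from pooled *Egr2Cre/+*; *Rosa26RTom* embryos, with 1 library per stage. In this line, Cre made under the control of *Egr2* (also called *Krox20*) switches on Tomato for good, so that cells which once expressed *Egr2*, and their progeny, are labelled. The tissue was meninges and dorsal root ganglia with the attached nerve roots, and the labels call the cells boundary cap cells. Stage, litter and library cannot be told apart in this design, and no difference between the stages was tested.

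SOX8, SOX9 and SOX10 form the SoxE family of transcription factors, which specify neural crest cells and keep glial progenitors in a glial state. Schwann cell precursors are the nerve-associated glial progenitors of the embryo. They give rise to Schwann cells and also to autonomic neurons, melanocytes and other derivatives. A progenitor state of these cells, known as the hub state, is marked by *Sox8* and by *Itga4*, the gene of integrin alpha 4. Boundary cap cells sit where the roots meet the spinal cord, express *Egr2* and *Prss56*, and give rise to glia and to some sensory neurons.

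The deposited libraries held 10287595 UMIs over 1431 barcodes at E11.5 and 23460243 over 3762 in the E12.5 library. The 9 cell barcodes that both libraries shared included 0 members. Members spanned 2840 to 28834 UMIs per cell at E11.5 and 1433 to 17791 in the E12.5 library. Each was set beside 3 cells of the same library with *Sox10* but no *Sox8* and with nearly the same total UMIs, which gave 174 matched cells at E11.5 and 453 in the E12.5 library. Median UMIs were 15806.5 in members and 15771 in matched cells at E11.5, and 6271 and 6273 in the E12.5 library. Levels below are in CPM, the UMIs of a gene per 1000000 UMIs, over the summed cells of a set, without *Sox8* and *Sox10*. Brackets give 95% intervals, exact binomial for shares and exact Poisson or conditional for levels and ratios, which cover counting error only.

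In GRCm39, *Sox8* (ENSMUSG00000024176) occupies 25784634 to 25789726 of chromosome 17, on the minus strand. *Sox10* (ENSMUSG00000033006) lies on chromosome 15 from 79039108 to 79049469, also on the minus strand. The annotation places no other gene over either. Members were chosen by the *Sox8* and *Sox10* UMIs of these same cells, so the levels of both genes are given as a description. *Sox8* was found in 11.1% (8.55–14.1) of 522 *Sox10*-positive cells at E11.5 and 9.75% (8.32–11.3) of 1548 in the E12.5 library. In neuronal cells with *Isl1* and no *Sox10*, which should lack *Sox8*, the shares were 0.98% (0.119–3.5) of 204 cells, of median depth 11598 UMIs, and 0.517% (0.208–1.06) of 1355 cells, of median depth 6512. The *Sox10*-positive cells had median depths of 12546.5 and 6330 UMIs. Cells with neither *Sox10* nor *Isl1* had *Sox8* in 2.63% (0.546–7.5) of 114, of median depth 6525.5 UMIs, and in 3.79% (2.47–5.54) of 660, of median depth 5155. The interval of the *Sox10*-positive cells lay above those of both other kinds of cell in each library at the deposited depth.

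Most members sat at the threshold. At E11.5, 47 of the 58 held a single *Sox8* UMI, 8 held 2 and 3 held 3, the most seen in that library. At E12.5, 118 of the 151 held 1, 25 held 2 and 8 held 3 or more, with a maximum of 7. Just outside the threshold, all matched cells had 0 by construction. Of all UMIs, *Sox8* amounted to 80.5 CPM over the members at E11.5 and 195 in the E12.5 library. Detection followed depth at E11.5, where the share rose from 4.6% (2.01–8.86) to 10.9% (6.7–16.5) and 17.8% (12.4–24.3) over 3 equal groups of *Sox10*-positive cells from shallow to deep. At E12.5 the same groups gave 10.3% (7.79–13.2), 8.53% (6.26–11.3) and 10.5% (7.96–13.4). After thinning each cell to 2000 UMIs, *Sox8* remained in 5 of 265 *Sox10*-positive cells at E11.5, or 1.89% (0.615–4.35), and in 39 of 809 at E12.5, or 4.82% (3.45–6.53). The thinned *Isl1* cells gave 0.98% (0.119–3.5) of 204 and 0.382% (0.124–0.889) of 1309. At 2000 UMIs per cell the E11.5 share rested on 5 cells against 2, too few to tell it from that of the *Isl1* cells. The E12.5 share lay above that of the *Isl1* cells of its library. At the deposited depth, the E11.5 shares were 11.1% (8.55–14.1) and 0.98% (0.119–3.5), at median depths of 12546.5 and 11598 UMIs. Each result is given by library.

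**Figure D1:**
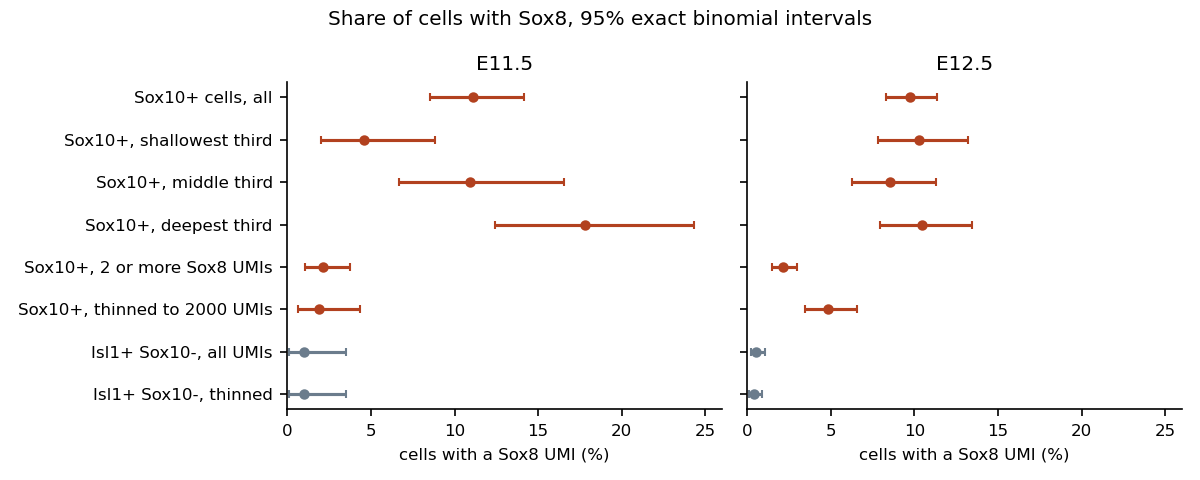
Share of cells with a *Sox8* UMI (x axis, percent) in each library, for *Sox10*-positive cells as a whole, in 3 equal groups by depth, with 2 or more *Sox8* UMIs and after thinning (red), and for *Isl1*-positive, *Sox10*-negative cells (grey). Points are shares and bars 95% exact binomial intervals. After thinning, the intervals of red and grey points overlap at E11.5 and lie apart at E12.5.

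Members and matched cells also differed in *Sox10* itself, which the rule used. Its median was 5 UMIs in members and 4.5 in matched cells at E11.5, and 2 in both in the E12.5 library. A single *Sox10* UMI was all that was found in 8.62% of members and 16.7% of matched cells at E11.5, and in 25.2% and 38% in the E12.5 library. Cells that qualified on 1 *Sox10* UMI thus made up a larger share of matched cells, on 5 members and 29 matched cells at E11.5. The E12.5 library had 38 and 172. No intervals were computed for these shares.

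Against matched cells, 9 of 26 tested genes of the Schwann cell lineage were called higher in the members, and 11 of 18 sensory neurogenesis genes were called lower. *Ngfr*, *Egfl8*, *Slc1a3* and *Tgfbr3* were each 1.71 to 2.25 times as high, in fitted fold, and higher in both libraries. The neurofilament genes *Nefl* and *Nefm*, the tubulin gene *Tubb3* and *Neurod1* were lower, with smaller ratios at E12.5 than at E11.5, while *Neurog1* had the smaller ratio at E11.5. In edgeR's quasi-likelihood test on the 4 summed profiles with the library as a block, 90 of 13605 genes were called higher at a Benjamini-Hochberg adjusted p under 0.05 (0.662%) and 119 lower (0.875%). The test rests on 2 pairs of sums, and 1 residual degree of freedom before edgeR shared the spread over genes. DESeq2 on the same sums called 0 genes, with 88 at an unadjusted p under 0.05 where edgeR had 1193. edgeR without the library term also called 0, with 285 at an unadjusted p under 0.05. Some calls came from single cells. In 15 of the 90 and 21 of the 119 genes, 1 cell held the larger part of a sum of 10 or more UMIs. Of all 90 and 119, 29 and 47 were still called when the cells richest in each gene were left out of every sum. Direction was shared by both libraries for 75 of the 90 and 100 of the 119.

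**Figure D2:**
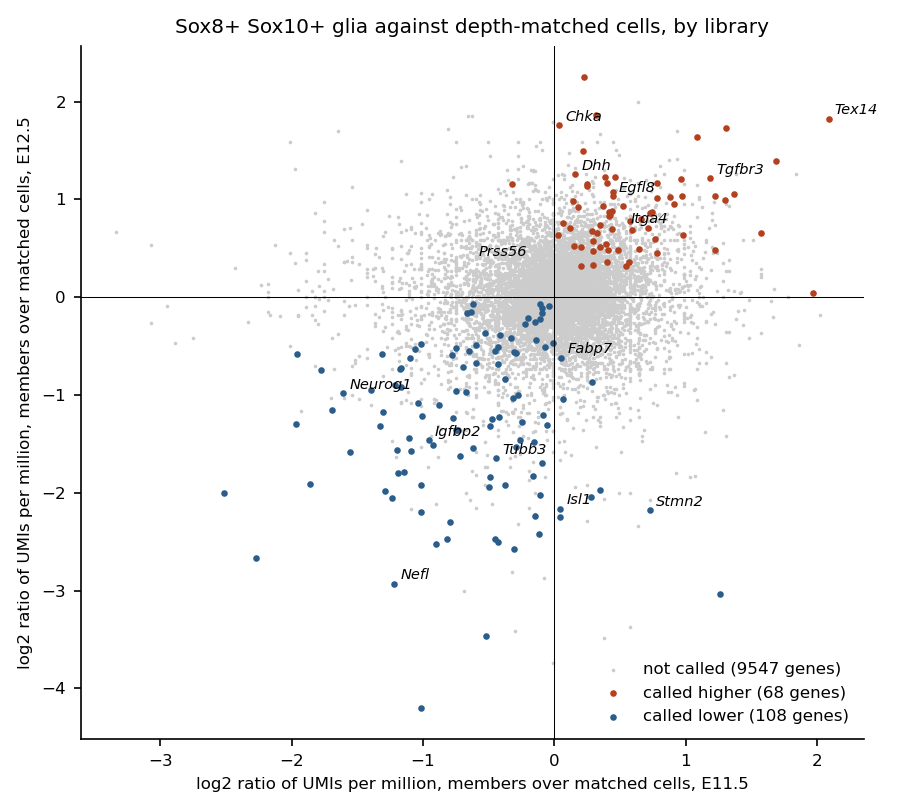
Log2 ratio of CPM, members over depth-matched cells, at E11.5 (x axis) and E12.5 (y axis). Each point is 1 of 9723 genes with a ratio in both libraries and 20 or more UMIs in each, grey where not called, red where called higher (68 genes) and blue where called lower (108 genes). *Isl1* and *Stmn2* lie far down the y axis with an E11.5 ratio above 0.

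Of 26 tested genes of the Schwann lineage and myelin list, 9 were called higher and 1 lower, with a median log2 fold change of 0.30 beside -0.02 for all genes tested. The summed list had ratios near 1, of 1.11 (1.07–1.15) and 1.03 (1.01–1.06), with *Fabp7*, the gene called lower, its most abundant member. *Ngfr*, the low-affinity neurotrophin receptor p75, reached 63.7 CPM (48.3–82.6) in members and 32.7 (26.2–40.3) in matched cells at E11.5, and 92.6 (75–113) and 40.2 (33.4–47.9) in the E12.5 library. The intervals did not overlap in either library, and the log2 fold change was 1.06 ± 0.21 (SE; edgeR adjusted p = 7.51e-05). It was found in 39.7% of members and 18.4% of matched cells at E11.5 and in 29.8% and 18.3% in the E12.5 library. *Egfl8*, which encodes a secreted EGF-like domain protein, had 138 CPM (114–164) against 101 (89.4–114) at E11.5 and 495 (453–539) against 242 (225–260) at E12.5. Its log2 fold change was 0.77 ± 0.13 (edgeR adjusted p = 8.87e-07), and it was found in 55.2% (41.5–68.3) of members and 45.4% (37.9–53.1) of matched cells at E11.5, which overlapped, and in 82.1% (75.1–87.9) and 56.1% (51.4–60.7) in the E12.5 library, which did not.

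*Gfra3*, the artemin co-receptor, had 45.8 CPM (32.9–62.2) in members and 23.3 (17.9–29.9) in matched cells at E11.5, and 102 (83.7–124) and 65.9 (57.2–75.5) in the E12.5 library. It was higher in members at each stage without overlap of the intervals. *Dhh*, the hedgehog ligand by which Schwann cells organise the nerve sheath, was another case. It had 16.8 CPM (9.39–27.7) against 15 (10.7–20.5) at E11.5, which overlapped, and 72.3 (56.9–90.6) against 30.2 (24.4–37) at E12.5, which did not. *Metrn*, a secreted glial factor, *Postn*, a matrix protein, and *Serpine2*, a protease inhibitor, were called higher with smaller log2 fold changes of 0.33 to 0.41. *Postn* and *Serpine2* had ratios of 1.09 (0.933–1.26) and 1.02 (0.884–1.18) at E11.5, and 1.64 (1.45–1.84) and 1.55 (1.41–1.71) in the E12.5 library. With the richest cells left out, the 4 genes of the list that were called were *Ngfr*, *Egfl8*, *Gfra3* and *Metrn*. General markers of the lineage were close in both sets. *Cdh19* and *Ednrb* had log2 fold changes of -0.02 and 0.02, and *Erbb3*, the neuregulin receptor, 0.17, and none of the 3 was called.

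**Figure D3:**
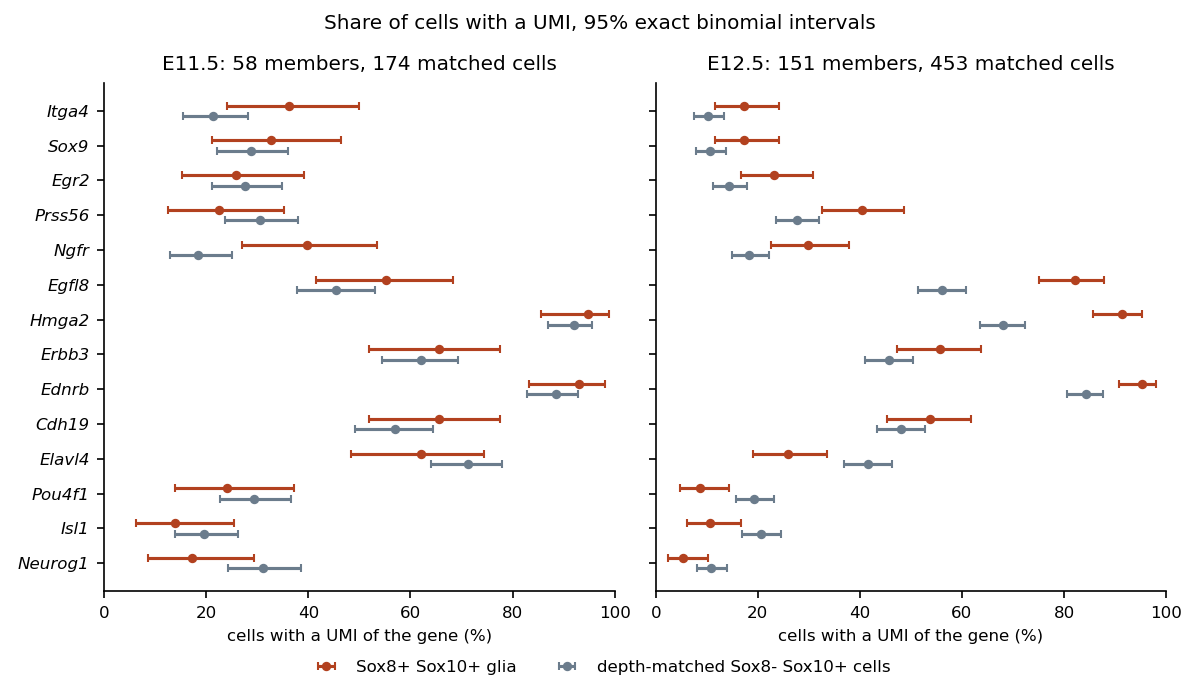
Share of cells with a UMI of each gene (x axis, percent) among members (red) and depth-matched cells (grey), in each library. Points are shares and bars 95% exact binomial intervals. At E11.5 the intervals of *Ngfr* lie apart, and at E12.5 those of *Egfl8*, *Hmga2*, *Ednrb*, *Elavl4* and *Pou4f1*, among others.

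*Slc1a3*, the glial glutamate transporter GLAST, was the only gene of the 10 tested on the ganglion glia list to be called higher, and 2 of that list were called lower. It had 78.3 CPM (61–98.9) in members and 45.5 (37.7–54.4) in matched cells at E11.5, and 212 (185–242) and 94.5 (84–106) in the E12.5 library (log2 fold change 0.99 ± 0.17, edgeR adjusted p = 2.39e-06). *Fabp7*, the brain lipid-binding protein of glial progenitors, went the other way. It had 1673 CPM (1589–1760) in members and 1612 (1564–1661) in matched cells at E11.5, and 2248 (2158–2342) and 3449 (3384–3515) in the E12.5 library. It was thus lower at E12.5 only, with an E11.5 ratio of 1.04 (0.978–1.1). The share of cells with it was 100% (97.6–100) of members and 94% (91.4–96) of matched cells at E12.5. *Ptn*, the secreted growth factor pleiotrophin, was lower by a small margin in both libraries, with ratios of 0.905 (0.838–0.976) and 0.84 (0.797–0.885).

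The list of laminins and collagens gave 3 of 19 genes called higher by edgeR, beside 0.662% of all genes tested. These 3 were *Col20a1*, *Col3a1* and *Col1a2*, with ratios at E12.5 of 2.2 (1.81–2.67), 1.71 (1.45–2.01) and 1.28 (1.11–1.47). *Col3a1* and *Col1a2* are fibrillar collagens that also stand on the mesenchymal list. At E12.5, 13.2% of members and 7.95% of matched cells held 3 or more mesenchymal markers, and the intervals of those shares overlapped (8.28–19.7 and 5.63–10.8). The whole list of 15 summed to 219 CPM (190–252) in members and 149 (135–164) in matched cells at E11.5, and to 568 (523–616) and 405 (383–428) in the E12.5 library, which did not overlap, with *Col1a2* the most abundant. At E11.5, 10 of the 15 genes were at 0 in members. At E12.5, 7 were at 0, *Prrx1*, *Twist2*, *Pdgfra*, *Foxc2*, *Twist1*, *Osr1* and *Six2*, and each of these had at most 3 UMIs in matched cells. *Col1a1* had 39 UMIs in members and 79 in matched cells there, with 3 matched cells per member. *Lum*, with 7 and 47 UMIs, and *Dcn*, with 3 and 13, went the other way. Of the 6 mesenchymal markers tested, 4 were fitted higher and 2 lower. *Col3a1* was no longer called, at a log2 fold change of 0.09, when cells with neuronal RNA were removed, which left 17 members at E11.5 and 100 in the E12.5 library. Another setting removed cells with a UMI of chosen pericyte or mesenchymal markers, *Pdgfrb*, *Rgs5*, *Kcnj8*, *Abcc9*, *Prrx1*, *Col1a1*, *Pdgfra* and *Foxc2*. Cells with other genes of those lists, such as *Col1a2*, *Col3a1*, *Lum* or *Dcn*, stayed in. There, *Col3a1*, *Col1a2* and *Col20a1* had log2 fold changes of 0.74, 0.49 and 0.78 but were not called (edgeR adjusted p = 0.0735, 0.14 and 0.204).

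On the list of BMP, TGF-beta and Wnt genes, 2 of 31 were called higher and 1 lower. Beside this and the other counts of the paragraph, 0.662% of all genes tested were called higher and 0.875% lower. *Tgfbr3*, the co-receptor betaglycan, had 58.1 CPM (43.4–76.2) in members and 25.6 (19.9–32.4) in matched cells at E11.5, and 142 (120–167) and 61.1 (52.7–70.4) in the E12.5 library. Its ratios of 2.27 (1.55–3.31) and 2.32 (1.86–2.89) were nearly the same at both stages. *Sfrp1*, a secreted Wnt antagonist, had ratios of 1.29 (0.918–1.8) and 1.91 (1.49–2.45), and *Tgfb2*, a ligand, 0.463 (0.23–0.857) and 0.369 (0.153–0.772). *Errfi1*, a feedback inhibitor of ErbB receptors, was the 1 called gene of 8 on the neuregulin and ErbB list, with ratios of 1.16 (0.608–2.11) and 2.81 (1.83–4.32). *Tnc*, the matrix protein tenascin C, was the 1 called of 19 on the list of integrins and their ligands, on 3 UMIs at E11.5 and 22 in the E12.5 library in members.

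Several genes outside every list were chosen after their values were seen, because they were also called with the richest cells left out. *Gpr37*, an orphan receptor of glia, had ratios of 1.51 (1.27–1.79) and 1.61 (1.42–1.82). *Hmga2*, a chromatin protein of fetal progenitors, had 1.34 (1.21–1.48) and 1.79 (1.63–1.96). *Tenm3*, a teneurin adhesion receptor, had 1.25 (1.11–1.42) and 1.58 (1.46–1.7), and *Sorcs1*, a sorting receptor, 1.43 (1.09–1.88) and 1.91 (1.57–2.31). All 4 were higher in both libraries, with intervals of the ratio above 1. *Chka*, choline kinase alpha, which starts phosphatidylcholine synthesis, behaved otherwise. It had 47 CPM (33.8–63.5) against 45.9 (38.1–54.8) at E11.5 and 235 (207–267) against 69.4 (60.5–79.3) at E12.5. Its ratio was therefore 1.02 (0.703–1.46) at E11.5 and 3.39 (2.81–4.09) in the E12.5 library, where 85 of the 151 members had it and 1 of them held 31 of the 244 UMIs.

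Sensory neurogenesis genes formed the largest group of lower genes. Of 18 tested, 11 were called lower and 0 higher by edgeR, and the median log2 fold change was -1.06 beside -0.02 for all genes tested. *Neurog1*, the proneural factor that starts sensory neurogenesis, had 23.5 CPM (14.5–35.9) in members and 71.4 (61.6–82.3) in matched cells at E11.5, and 14.5 (8.09–23.9) and 28.6 (23–35.2) in the E12.5 library. *Neurod1*, which acts after it, had 53.7 (39.6–71.2) against 75.9 (65.8–87.2) and 27 (17.9–39) against 104 (92.8–116). *Pou4f1*, the sensory neuron factor BRN3A, had 52.5 (38.6–69.9) against 89.9 (78.8–102) and 40.5 (29.2–54.7) against 95.1 (84.6–107). These 3 were lower in members at both stages. Also called were the transcription factors *Nhlh1*, *Nhlh2*, *Tlx2*, *Tlx3* and *Isl1*, the splicing regulator *Srrm4* and the cofactor *Eya2*, with log2 fold changes from -1.60 to -0.71. *Isl1* showed no difference at E11.5, with a ratio of 1.03 (0.774–1.36), where 1 member held 44 of the 70 UMIs, and was lower at E12.5, with 0.224 (0.152–0.319).

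Pan-neuronal genes followed, with 9 of 19 called lower, 0 higher, and a median log2 fold change of -1.02. *Nefl*, the light neurofilament chain, had 13.4 CPM (6.93–23.4) in members and 31.2 (24.9–38.7) in matched cells at E11.5, and 13.5 (7.38–22.6) and 103 (91.9–115) in the E12.5 library. *Tubb3*, the neuronal beta-tubulin, had 199 (171–230) against 270 (251–291) and 180 (155–208) against 563 (537–590). Both were lower at each stage and further apart at E12.5. *Nefm*, *Map1b*, *Rtn1* and the RNA-binding proteins *Elavl2*, *Elavl3* and *Elavl4* were also called lower. *Rtn1* and *Stmn2*, a microtubule regulator of axons, had higher values in members at E11.5 and lower values at E12.5. *Stmn2* had 44.7 CPM (31.9–60.9) in members and 27.1 (21.2–34.1) in matched cells at E11.5, where 1 member held 30 of the 40 UMIs, and 31.8 (21.9–44.7) against 144 (131–158) at E12.5.

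Much of the neuronal difference moved with the choice of *Sox10*-positive cells. With matched cells chosen on *Sox10* share too, 2 of 19 sensory neurogenesis genes and 5 of 19 pan-neuronal genes were called lower, with medians of -0.64 and -0.55. With 1 matched cell per member, 0 of 17 and 1 of 18 were called lower by edgeR, with medians of -0.78 and -0.55. Other settings gave larger differences. Without doublet-scored cells, 12 of 18 and 12 of 19 were called lower, with medians of -1.51 and -1.39. With 2 *Sox8* UMIs required, 10 of 17 and 4 of 15 were called lower, with medians of -2.40 and -0.89, the second smaller than with all members. When members and matched cells both had to hold 2 or more *Sox10* UMIs, which left 53 and 113 members, the median of the sensory neurogenesis list went to -0.56 and 1 of its 18 genes, *Neurog1*, was called lower. The pan-neuronal median went to -0.09, with 0 of 18 called by edgeR, and *Nhlh1*, *Nhlh2*, *Isl1*, *Tlx3*, *Stmn2* and *Rtn1* changed sign. Calls in this setting numbered 28 higher and 26 lower over 13125 genes. In another setting, cells with any UMI of *Pou4f1*, *Neurog1*, *Neurod1* or *Elavl4* were removed. These genes stand on the neuronal lists, so nothing is read from those lists there. Among matched cells, 75.9% at E11.5 and 49.4% in the E12.5 library carried 1 of these 4 RNAs, and among members 70.7% and 33.8%. The Schwann lineage list also lost calls, from 9 higher to 2 with 2 *Sox10* UMIs and to 1 without neuronal RNA, and its median went from 0.30 to 0.25 and 0.10. *Gfra3* had log2 fold changes of 0.46 and 0.07 in these settings and was called in neither. *Ngfr*, *Egfl8*, *Slc1a3*, *Tgfbr3*, *Col20a1*, *Gpr37*, *Hmga2*, *Tenm3*, *Sorcs1* and *Chka* were called higher with 2 *Sox10* UMIs. Of these, *Egfl8* (log2 fold change 0.56, edgeR adjusted p = 0.012) and *Chka* (1.28, adjusted p = 8.41e-08) were also called without cells holding neuronal RNA.

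**Figure D4:**
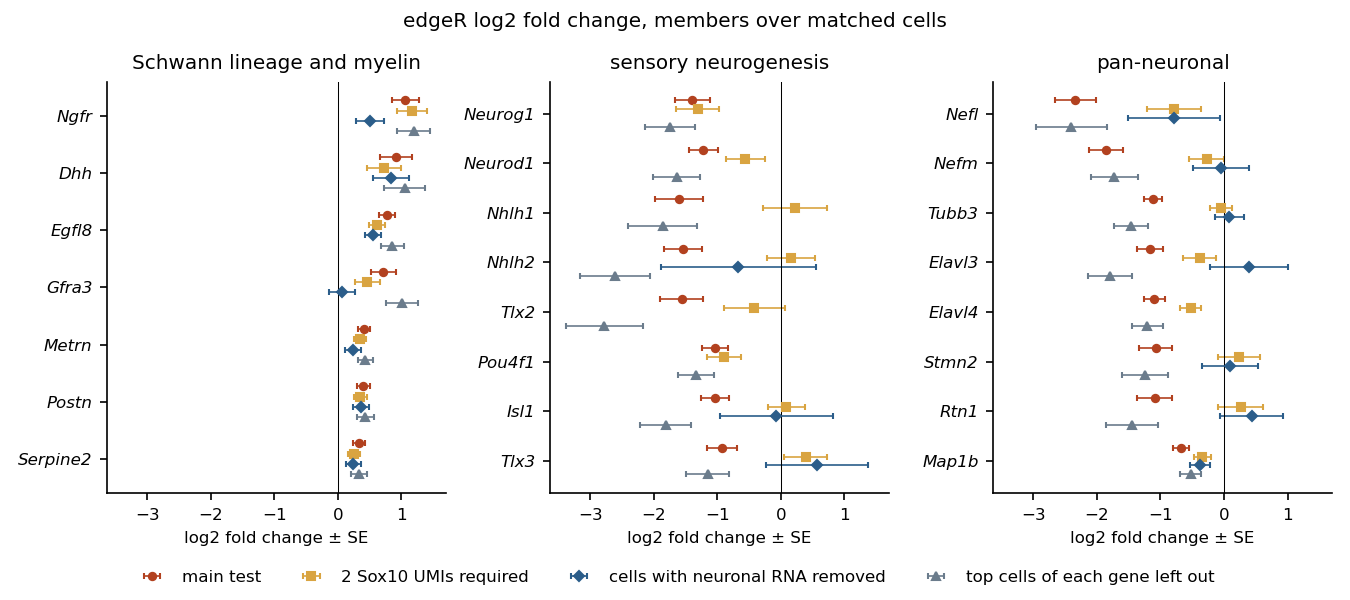
edgeR log2 fold change (x axis, ± SE), members over matched cells, for 7 of the 9 genes called higher of the Schwann lineage list (*Fabp7*, called lower, is not drawn) and 8 each of the 11 and 9 genes called lower of the sensory neurogenesis and pan-neuronal lists, with all cells (red), with 2 *Sox10* UMIs required (yellow), with cells holding neuronal RNA removed (blue) and with the richest cells of each gene left out (grey). Genes with no fit in a setting have no point. The Schwann lineage points stay above 0, while several neuronal points move to 0 or above it in the yellow setting. The blue setting removes cells by genes of the neuronal lists.

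On the Notch pathway list, 2 of 20 genes were called lower by edgeR, beside 0.875% of all genes tested. The list had a median log2 fold change of -0.16. *Hes6*, an inhibitor of HES1 that favours differentiation, and *Mfng*, a glycosyltransferase that modifies Notch, were the 2 called of 20 Notch genes, both lower. *Hes6* had 93.9 CPM (74.9–116) in members and 211 (194–230) in matched cells at E11.5, and 83.9 (67.2–103) and 158 (144–173) in the E12.5 library. The axon guidance receptors *Robo1* and *Robo2* were the 2 called of 35 guidance genes, with log2 fold changes of -0.58 and -1.44. *Robo1* had ratios of 0.66 (0.54–0.802) and 0.713 (0.583–0.866), and it was also called lower with 2 *Sox10* UMIs. *Robo2* was not called in that setting, at a log2 fold change of -0.33 (edgeR adjusted p = 0.969). *Tfap2b*, a neural crest factor, was the 1 called of 25 crest and glial transcription factors, with ratios of 0.772 (0.626–0.946) and 0.558 (0.424–0.727). *Igfbp2*, an insulin-like growth factor binding protein named after its values were seen, had ratios of 0.515 (0.326–0.785) and 0.362 (0.247–0.515). It was called lower with 2 *Sox10* UMIs, without cells holding neuronal RNA and without the richest cells.

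*Itga4*, the other marker of the hub state, lies on chromosome 2 of GRCm39 from 79085660 to 79163467, on the plus strand, and overlaps *Cerkl* on the other strand. It had 40.2 CPM (28.2–55.7) in members and 27.8 (21.8–34.9) in matched cells at E11.5, and 28 (18.7–40.2) and 17 (12.8–22.3) in the E12.5 library. The share of cells with it was 36.2% (24–49.9) against 21.3% (15.4–28.1), and 17.2% (11.6–24.2) against 10.2% (7.53–13.3). Values were higher in members at both stages with overlapping intervals, with ratios of 1.45 (0.943–2.18) and 1.64 (1.01–2.63), and the gene did not pass the test (log2 fold change 0.58 ± 0.25, edgeR adjusted p = 0.397). At these depths a cell without a UMI may still express the gene. As the test did not set *Itga4* apart, the cells are called *Sox8*-positive glia here. Of the other SoxE and SoxD factors, *Sox9* had ratios of 1.18 (0.786–1.75) and 2.39 (1.56–3.63), *Sox5* of 0.949 (0.815–1.1) and 1.24 (1.1–1.39), and *Sox6* of 1.26 (0.756–2.04) and 1.11 (0.663–1.79). None of the 3 was called with all members. With 2 *Sox8* UMIs required, *Sox9* was called higher, at a log2 fold change of 1.92 (edgeR adjusted p = 0.00491) against 0.68 with all members.

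Of 9 boundary cap genes tested, 0 were called in either direction by edgeR, and the median log2 fold change was -0.05, with 4 fitted higher and 5 lower. *Prss56* was lower in members at E11.5, with 38 CPM (26.3–53.1) against 58.7 (49.8–68.6), and higher at E12.5, with 213 (186–243) against 164 (150–179). *Egr2* had 32.4 CPM (21.7–46.6) against 28.2 (22.2–35.3), and 50.1 (37.4–65.7) against 24.1 (19–30.2). So *Egr2* overlapped at E11.5 and was higher at E12.5. Cells with *Prss56* or *Egr2* made up 39.7% (27–53.4) of members and 44.3% (36.7–52) of matched cells at E11.5, and 52.3% (44–60.5) and 32.5% (28.2–37) in the E12.5 library. *Npr3*, *Hey2*, *Sema6a*, *Cxcr4*, *Wif1* and *Ntn5* had log2 fold changes between -0.67 and 0.27. *Cxcl12* and *Cdh7* had 0 UMIs in members of both libraries.

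Genes of the cell cycle were called in neither direction by edgeR, with 0 of 20 G1/S and 0 of 21 G2/M genes. The G2/M list summed to 3260 CPM (3143–3381) in members and 3657 (3585–3731) in matched cells at E11.5, and to 3361 (3250–3475) and 2670 (2613–2728) in the E12.5 library, so the direction differed between the libraries. *Cdkn1c*, a cyclin-dependent kinase inhibitor, was the 1 called of 11 cycle inhibitors, lower with ratios of 0.749 (0.614–0.908) and 0.763 (0.642–0.904), but it changed sign with 2 *Sox10* UMIs. Over all genes tested, 0.662% were called higher and 0.875% lower, to be set beside the counts of this paragraph. Of 16 stress and early response genes, 3 were called higher. These were the chaperone gene *Hspa1a* and the immediate early genes *Egr1* and *Jun*, which respond to dissociation among other things. The list had a median log2 fold change of 0.40, above that of the Schwann lineage list, with 13 of 16 fitted higher, and summed ratios of 1.01 (0.985–1.04) and 1.04 (1.01–1.06). Its part in the other results was not tested. *Hspa1a* rested on 10 and 47 UMIs in members, with ratios of 3.72 (1.32–10.8) and 3 (1.96–4.59). The share of mitochondrial UMIs had medians of 1.24% in members and 1.26% in matched cells at E11.5, and 1.43% and 1.32% in the E12.5 library. The Hox genes *Hoxa7* and *Hoxb9*, which pattern the trunk, were called higher of 22 tested, with ratios of 1.32 (1.06–1.63) and 1.13 (0.921–1.39) at E11.5 and of 2.25 (1.71–2.96) and 1.89 (1.52–2.35) in the E12.5 library.

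Markers of other cell types were sparse. Of 6 myeloid markers tested, 4 were called higher, *Fcer1g*, *Tyrobp*, *C1qb* and *C1qc*, and each rested on 1 to 4 cells. A single member at E11.5 held all 33 UMIs of *Fcer1g*, and a single member at E12.5 all 20 UMIs of *C1qb*. Only 1 member, at E12.5, held 3 or more myeloid markers. The 10 markers summed to 39.1 CPM in members and 1.5 in matched cells at E11.5, where 8 of them, *Ptprc* and *Csf1r* included, were at 0 in members, and to 85.8 and 6.11 at E12.5, where *Ptprc* was at 0. With the richest cells left out, the myeloid genes had too few UMIs to be tested. *Isl2*, a motor neuron factor, was the 1 gene tested on its list and had 0 UMIs in members against 2 and 34 in matched cells. Melanoblast, pericyte, endothelial, erythroid, muscle, cartilage and autonomic lists had no called gene by edgeR, and *Tyrp1*, *Tyr*, *Slc45a2* and *Mlana* of the melanoblast list were at 0 in members of both libraries. Doublet scores of 0.2 or more were given to 2 members at E11.5 and 4 in the E12.5 library, and removing such cells from both sets gave 120 genes called higher and 172 lower.

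Whether on a list or not, 12 genes in each direction were taken by the size of the smaller of the 2 library ratios. The higher ones were *Tex14*, *Dusp9*, *Ptx3*, *Xylt2*, *Fads3*, *Tgfbr3*, *Ccnyl1*, *Ldb2*, *Cpxm1*, *Slc36a2*, *Psen2* and *Tmem132e*. *Tex14*, known from the germ line, stood first with ratios of 4.25 (2.56–7.15) and 3.55 (1.93–6.56), but 1 member at E11.5 held 34 of its 40 UMIs, and small RNA genes lie within its locus. *Dusp9*, a phosphatase of MAP kinases, had 3.22 (1.36–7.72) and 2.62 (1.6–4.25), found in 12 and 26 members with at most 5 UMIs in any. *Cpxm1*, a secreted carboxypeptidase-like protein, had 2.58 (1.57–4.23) and 2.08 (1.43–3) and was also called with the richest cells left out. The lower ones were *Caly*, *Pcyt1b*, *Igfbpl1*, *Nhlh1*, *Ccdc182*, *Mreg*, *Btbd17*, *Fam171b*, *Gmip*, *Nefl*, *Lratd2* and *Rnf150*. *Fam171b* had ratios of 0.425 (0.211–0.782) and 0.241 (0.129–0.416), and *Mreg*, a melanosome transport protein, 0.256 (0.0802–0.633) and 0.408 (0.242–0.654). Of these 24 genes, *Xylt2*, *Fads3*, *Ccnyl1*, *Psen2*, *Tmem132e*, *Gmip* and *Lratd2* did not pass the test.

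The members also varied among themselves. These splits use the members' own counts and carry no test. The 21 members with *Itga4* at E11.5 were deeper than the 37 without, with medians of 19352 and 12995 UMIs, and at E12.5 the 26 and 125 had 6828 and 6206. *Postn* had ratios of 1.43 (1.1–1.86) and 1.22 (0.965–1.54), with an interval above 1 at E11.5 only. *Slc1a3* and *Hmga2* gave no common direction, with E11.5 ratios of 3.21 (1.86–5.75) and 1.78 (1.51–2.12) and E12.5 ratios of 0.893 (0.615–1.27) and 0.727 (0.587–0.892). *Tubb3* had 3.24 (2.31–4.61) and 0.336 (0.18–0.578). Without cells of doublet score 0.2 or more, which took 1 of the 21 members with *Itga4* at E11.5, its ratios were 0.931 (0.584–1.47) and 0.432 (0.224–0.764). The summed pan-neuronal genes went from 1.56 (1.36–1.79) to 0.791 (0.669–0.934) at E11.5, and sensory neurogenesis genes from 0.789 (0.646–0.962) to 0.142 (0.0928–0.211).

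A second split was by *Sox8* itself. Members with 2 or more *Sox8* UMIs, 11 at E11.5 and 33 in the E12.5 library, were compared with those at 1. *Egfl8* was higher in them by 2.01 (1.36–2.95) and 1.55 (1.26–1.89), *Slc1a3* by 2.5 (1.49–4.13) and 1.65 (1.21–2.23), *Serpine2* by 1.52 (1.15–2) and 1.62 (1.36–1.93) and *Prss56* by 2.96 (1.4–6.14) and 1.64 (1.2–2.21). These 4 were picked after their values were seen, from the genes with an interval above 1 in both libraries, as *Tenm3* also had. Other groups went opposite ways. The G2/M genes had ratios of 1.47 (1.35–1.59) and 0.803 (0.732–0.879), the G1/S genes 0.787 (0.697–0.887) and 1.19 (1.05–1.33), the pan-neuronal genes 0.565 (0.46–0.688) and 1.29 (1.1–1.5), and the sensory neurogenesis genes 0.0536 (0.0196–0.118) and 1.18 (0.916–1.52). Without doublet-scored cells the pan-neuronal ratios were 0.832 (0.673–1.02) and 1.06 (0.887–1.27), and those of sensory neurogenesis 0.0786 (0.0286–0.173) and 1.56 (1.18–2.04). Of the 89 myeloid marker UMIs in members at E12.5, 84 lay in those with 2 or more *Sox8* UMIs. Only 1 of the 151 members there held 3 or more myeloid markers, so these UMIs are no trait of the group. *Chka* was higher at E12.5 only, by 3.07 (2.36–3.99), and *Fabp7* and *Ednrb*, the endothelin receptor, were lower there, at 0.569 (0.5–0.645) and 0.618 (0.495–0.765).

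Members with *Prss56* or *Egr2*, 23 at E11.5 and 79 in the E12.5 library, were compared with the 35 and 72 without. They were deeper, with medians of 17499 and 13480 UMIs at E11.5 and 6591 and 6154 in the E12.5 library, and had more G2/M RNA, by 1.49 (1.38–1.6) and 1.51 (1.41–1.62). The G1/S genes had ratios of 0.736 (0.67–0.808) and 1.06 (0.965–1.17), the pan-neuronal genes 1.66 (1.45–1.9) and 0.97 (0.851–1.11), and the sensory neurogenesis genes 1.07 (0.882–1.3) and 0.769 (0.624–0.947). Without the doublet-scored cells, 1 of the 23 at E11.5, the neuronal ratios there were 0.865 (0.733–1.02) and 0.35 (0.258–0.467). These members also held more *Slc1a3*, by 2.79 (1.64–4.89) and 2.35 (1.73–3.21), more *Tenm3*, by 1.64 (1.33–2.03) and 1.33 (1.17–1.52), more *Postn*, by 1.72 (1.32–2.26) and 1.45 (1.19–1.78), and more of the laminin receptor subunit gene *Itga6*, by 1.62 (1.13–2.33) and 1.55 (1.17–2.07). For *Gfra3* the ratios were 0.438 (0.198–0.899) and 0.785 (0.525–1.17), below 1 beyond counting error at E11.5 only.

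**Figure D5:**
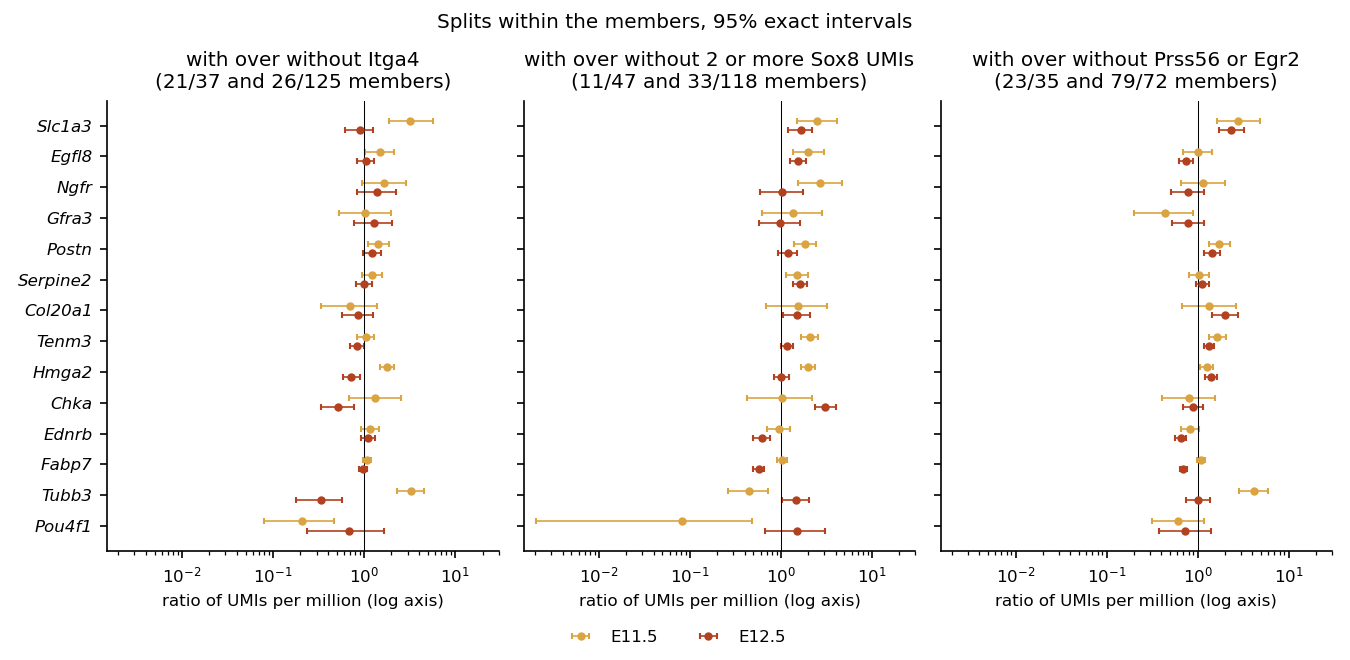
Ratio of CPM (x axis, log scale) within the members, for those with over those without *Itga4* (left), 2 or more *Sox8* UMIs (middle) and *Prss56* or *Egr2* (right), at E11.5 (yellow) and E12.5 (red). Bars are 95% exact intervals for counting error. *Slc1a3* lies above 1 in both libraries in the middle and right panels, and *Tubb3* lies on opposite sides of 1 in the 2 libraries in the left and middle panels, with all members drawn and no doublet removal.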

How the data were processed

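Single cells from 2 Tomato-sorted samples were profiled with the 10x 3' V2 kit. The deposited matrices hold raw UMI counts, made by the authors with Cell Ranger (7.0 per the submitters' processing notes, 7.0.1 per the file headers) on mm39. Strand and intron settings of the counting are not given in the sources used here. Barcodes with at most 10% mitochondrial UMIs and at least 2000 (E11.5) or 1000 (E12.5) UMIs were kept, without doublet removal, after the rule given for these cells.

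Each member was matched, deepest first, to 3 *Sox10*-positive, *Sox8*-negative cells within 0.1 log10 UMIs, without replacement. UMIs were summed per library and set. Genes with 10 or more UMIs were tested with edgeR 4.0.16 (quasi-likelihood, TMM, library as block; R 4.3.3), with Benjamini-Hochberg adjustment over all genes tested. DESeq2 1.42.0 was an alternative. *Sox8* and *Sox10* were left out of tests and library sizes. Doublet scores came from Scrublet in scanpy 1.11.5. Cells are not replicates, and each stage is 1 library. The p-values measure only how far the member to matched-cell difference varied between these 2 libraries, with the spread shared over genes by edgeR.

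Genes were named as all SoxE, SoxD and boundary cap genes and *Itga4*, called and most abundant genes of the other lists, and 12 genes in each direction by the smaller library ratio, with 20 or more UMIs over both sums of each library. Not all of the most abundant genes are printed, and a few called genes of the lists are not reported here. The members and gene lists were chosen with earlier results of these data known. Coordinates are from GENCODE M39 on GRCm39. Alternatives changed the matching, cell filters, thresholds, normalization and tool. Matching on *Sox10* share, removal of cells with chosen pericyte or mesenchymal markers and leaving out the richest cells were added after seeing the data. So was removing doublets from the splits by *Sox8* and by *Prss56* or *Egr2*.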

Additional observations from a re-analysis of the deposited data

Results flagged for a closer look

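Several results pointed opposite ways in the 2 libraries, each with an interval that excluded 1, and these differences between stages were not tested. *Stmn2* had a ratio of members to matched cells of 1.65 at E11.5 and 0.221 in the E12.5 library, and *Prss56* of 0.648 and 1.3. For *Stmn2*, 1 member at E11.5 held 30 of the 40 UMIs. The summed G2/M cycle genes had ratios of 0.891 and 1.26, and the summed erythroid markers 2.06 and 0.474, the last on 34 and 9 UMIs in members. *Sox8* was also present outside the members, in 5 kept cells without *Sox10* at E11.5 and 32 in the E12.5 library. Of the 32, 28 held *Fabp7*, 9 held *Erbb3* and 7 held *Isl1*.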

How the results depend on the processing

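Each stage is 1 library, so the library served as the replicate block, and the numbers of called genes depended on most choices. The 90 genes called higher and 119 called lower became 23 and 18 with 1 control per member. They were 50 and 74 with 2000 UMIs required in both libraries, and 28 and 26 with 2 *Sox10* UMIs. Without cells holding the chosen pericyte or mesenchymal markers they were 12 and 29. They were 14 and 15 without neuronal RNA, and 29 and 49 without the richest cells. Genes called higher fell to 56 with a mitochondrial share up to 5%. Genes called lower were 74 with 2 *Sox8* UMIs, 73 with matching on *Sox10* share and 214 with no depth matching. Without the replicate block edgeR called 0 and 0 (285 genes at an unadjusted p under 0.05), and DESeq2 called 0 and 0 (88). Several of these settings also lower the number of cells, and the cause was not tested. The *Sox8*-positive share of *Sox10*-positive cells, 11.1% at E11.5 and 9.75% in the E12.5 library, was 1.89% (5 cells) and 4.82% (39) after thinning, and 2.11% (11) and 2.13% (33) with 2 *Sox8* UMIs.

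Of 74 called genes named here, 62 kept their direction in each fit of both libraries that could test them. Log2 fold changes turned sign as follows, and the cause was not tested. With 2 *Sox10* UMIs they were 0.22 for *Nhlh1*, 0.16 for *Nhlh2*, 0.084 for *Isl1*, 0.39 for *Tlx3*, 0.24 for *Stmn2*, 0.27 for *Rtn1*, 0.053 for *Cdkn1c*, -0.064 for *Cxcr4* and -0.073 for *Ednrb*. Without neuronal RNA, a filter that uses genes of the neuronal lists, they were 0.56 for *Tlx3*, 0.083 for *Tubb3*, 0.40 for *Elavl2*, 0.40 for *Elavl3*, 0.093 for *Stmn2*, 0.43 for *Rtn1*, 0.15 for *Cdkn1c*, 0.042 for *Tmsb4x*, -0.20 for *Sox5*, -0.17 for *Prss56*, -0.035 for *Npr3*, -0.056 for *Ednrb* and -0.0029 for *Col1a2*. With 2 *Sox8* UMIs they were 0.13 for *Lratd2*, 0.57 for *Wif1*, 0.25 for *Cdh19* and -0.34 for *Ednrb*. *Cxcr4* had -0.21 with 1 control, -0.011 with 2000 UMIs, -0.055 without doublets and -0.026 with matching on *Sox10* share, where *Ednrb* had -0.00036. *Cdh19* had 0.010 in DESeq2, 0.0032 with its size factors, 0.024 without doublets and 0.0013 without the richest cells, where *Hey2* had 0.0010. With no depth matching, *Hey2* had 0.0041 and *Ednrb* -0.011. *Prss56* had -0.072 in DESeq2 and *Sema6a* 0.0057 with 1 control. Leaving out either library gave -2.16 to 0.043 for *Isl1*, -2.18 to 0.72 for *Stmn2*, -1.97 to 0.35 for *Rtn1* and -0.62 to 0.053 for *Fabp7*.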
